A study of Mus musculus with 16 samples.

Results

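The genes described here are the urokinase receptor Plaur, the plasminogen activators Plau and Plat, and the serpins Serpine2, Serpinb2 and Serpinf2, measured in mouse lung. They are 6 of the 25675 genes tested, found by their names in the array files, and all 6 passed the filter on dim probes. The set was put together because Plaur differed between genotypes in its response to diphtheria toxin (DT), so the levels of Plaur, and the difference of the responses for every member, are given as descriptions with no test. Total lung RNA of female mice was measured on 16 single-colour Agilent arrays, 1 per sample. ARF-DTR mice carry the diphtheria toxin receptor under the Arf promoter, and mouse cells that make this receptor can be killed by the toxin. There were 4 samples of untreated ARF-DTR mice aged 2 months, 4 of ARF-DTR mice aged 12 months given PBS, and 4 of ARF-DTR mice aged 12 months given DT. Wild type mice aged 12 months gave 2 samples with PBS and 2 with DT. The DT dose was 50 microgram per kg, given intraperitoneally every 2 weeks over 1 month. PBS was also given every 2 weeks over 1 month. In the comparisons with the untreated 2-month mice, age and the course of PBS or DT cannot be told apart, and "age" below stands for both. The labels do not say that each sample came from a separate mouse, and p-values therefore measure only how far samples lie apart, which may be technical.

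The arrays lay on 2 slides. The 2-month and PBS-treated ARF-DTR samples were on slide 1, and slide 2 carried the wild type samples along with the DT-treated ARF-DTR ones. Age, DT in wild type and the comparisons of DT-treated ARF-DTR with wild type lay within a slide. DT in ARF-DTR, the genotypes with PBS, and DT-treated against 2-month ARF-DTR crossed slides, and there slide and group cannot be told apart. The free description of wild type PBS replicate 1 names DT, while its title, source and treatment say PBS, which was followed. The free descriptions of both wild type DT samples leave DT out, while their titles and sources name it. An exchange of labels among the wild type arrays was not tested, and the direction of the wild type differences with DT rests on the titles. The 75th percentile of the probe signals lay between 613 and 1088 intensity units per array, and 55.6% to 66.9% of probes were well above background.

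Plasminogen is a circulating proenzyme that is cut to plasmin, a protease that dissolves fibrin and acts on matrix proteins. The cut is made by urokinase, the product of Plau, which is held at the cell surface by its receptor, the product of Plaur, and by tissue-type plasminogen activator, the product of Plat. Serpins restrain the system at both steps, some by blocking the activators and others by blocking plasmin. In the lung the system takes part in the clearance of fibrin from the air spaces and in the migration of leukocytes.

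Each member was read by 1 probe in 1 spot per array, so the values below rest on a single stretch of 60 bases per transcript. The first 30 bases of each probe are shown because they say which part of each gene was measured.
Plaur: ccctcgtgttgtcttctttggacctcagtt
Plau: gtgtatttctgtatctaactgcaagtctag
Plat: aaggttacgaattacctagactggattcac
Serpine2: aagcaaaaattgaagtcagtgaagatggaa
Serpinb2: catcataagtaagcatgcttacttacacac
Serpinf2: cctttagctcccaagactcttttgtaaagt
On the mouse build mm9 these probes lay at chr7:25260569-25260628 (plus strand) for Plaur, chr14:21662242-21662301 (plus) for Plau, chr8:23892531-23892590 (plus) for Plat, chr1:109422046-109422105 (plus) for Serpinb2 and chr11:75245252-75245311 (minus) for Serpinf2. The Serpine2 probe, on the minus strand, covered chr1:79793476-79796093, a span of 2618 bases, so its 60 bases are split on the genome.

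Promoter windows of the RefSeq table (build GRCm38.p6) were found for 4 of the 6 members, Plaur, Serpine2, Serpinb2 and Serpinf2. The 250 bases before the start site are shown for Plaur, on which the choice of genes rested, and for Serpinf2, the other member that was lowest on both wild type PBS arrays. They are written 5′ to 3′ on the strand of the gene, from chr7:24462233-24462482 (plus) and chr11:75439502-75439751 (minus). Capitals mark matches on either strand to TGANTCA, the AP-1 motif, to GGGCGG, the GC box, or to TATAAA, the TATA box.
Plaur: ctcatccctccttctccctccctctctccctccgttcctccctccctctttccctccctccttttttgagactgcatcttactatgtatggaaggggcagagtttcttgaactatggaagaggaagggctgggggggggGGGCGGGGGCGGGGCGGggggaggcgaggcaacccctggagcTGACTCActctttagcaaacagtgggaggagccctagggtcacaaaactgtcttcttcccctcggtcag
Serpinf2: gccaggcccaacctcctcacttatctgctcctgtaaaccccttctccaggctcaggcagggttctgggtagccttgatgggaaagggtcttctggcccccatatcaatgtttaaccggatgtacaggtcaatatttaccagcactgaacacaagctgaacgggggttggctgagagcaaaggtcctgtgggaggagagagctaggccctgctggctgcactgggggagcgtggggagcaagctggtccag
The Plaur window held 1 AP-1 match that began 69 bases before the start site, and 3 GC boxes that began 111, 105 and 100 bases before it, of which the last 2 share a base. It held no TATAAA, and the Serpinf2 window held none of these 3 motifs. Serpinb2, whose first listed window has an AP-1 match 94 bases and a TATA match 29 bases before the start, had no GC box, and Serpine2 had 6 GC boxes. Of 32851 windows of the same length, 6.75% held the AP-1 motif, 32.7% the GC box and 12.4% the TATA box. These matches are letters in a window and were not tied to any measurement.

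Plaur encodes uPAR, a membrane-anchored protein of the Ly6 family that binds urokinase. Its levels are given as log2 signal relative to the 75th percentile of the array, so that 0 is the level of that percentile. With PBS, the wild type lungs were at 2.53 and 2.56. With DT, they were at 3.12 and 3.23. No array of another group fell to the level of the wild type PBS pair, the lowest being at 3.02.

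In ARF-DTR lungs the order was the other way round. The PBS arrays were at 3.19, 3.35, 3.15 and 3.33 and the DT arrays at 3.02, 3.14, 3.04 and 3.10. The groups did not overlap, but the gap between them was small, and the 2-month arrays, at 3.13, 3.10, 3.20 and 3.37, overlapped both. In order of the means, Plaur was at 3.25 ± 0.10 (SD, n = 4) in ARF-DTR lungs with PBS, 3.20 ± 0.12 (n = 4) at 2 months, 3.18 ± 0.08 (n = 2) in wild type with DT, 3.08 ± 0.05 (n = 4) in ARF-DTR with DT and 2.54 ± 0.02 (n = 2) in wild type with PBS. Each of the first 4 groups overlapped its neighbours in that order, and the last group stood below all others.

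**Figure D1:**
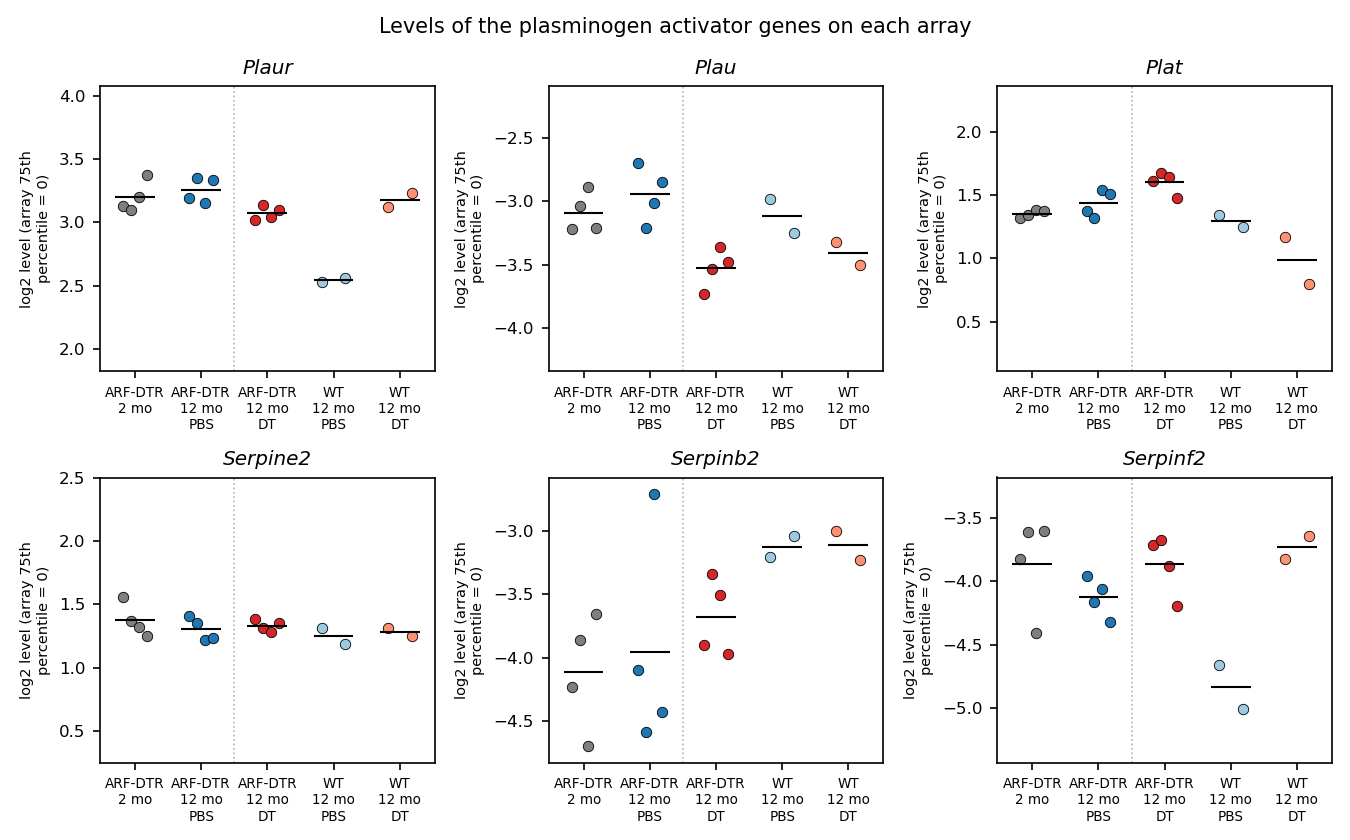
Level of each of the 6 genes on each array, as log2 signal with the 75th percentile of the array at 0; points are arrays, bars are group means, every panel spans the same log2 range, and the dotted line separates slide 1 (left) from slide 2 (right). Plaur was lowest on the 2 wild type PBS arrays (2.53 and 2.56), as was Serpinf2 (-4.66 and -5.01), while Serpine2 lay between 1.19 and 1.56 throughout.

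DT was associated with a Plaur difference of 0.63 ± 0.10 (SE, 1.55-fold higher) in wild type and of -0.18 ± 0.07 (1.13-fold lower) in ARF-DTR lungs. The difference of the 2 responses was -0.81 ± 0.12, which is the value the genes were chosen on. The standard errors given for Plaur are therefore no test of its differences. In that contrast 2.11% of all genes passed (541 of 25675), from which nothing is read here. With arrays scaled to their medians the ARF-DTR response of Plaur was 0.00, while the wild type response was 0.70 and the difference of the responses was -0.70. PBS-treated ARF-DTR lungs were above PBS-treated wild type lungs by 0.71 ± 0.09, across slides. On slide 2, DT-treated ARF-DTR lungs were above wild type PBS lungs by 0.53 ± 0.09 and at -0.10 ± 0.09 from wild type DT lungs. Between 2 and 12 months Plaur differed by 0.06 ± 0.07, and between DT-treated and 2-month ARF-DTR lungs by -0.12 ± 0.07. These comparisons share arrays with one another, and the wild type PBS pair enters each of those in which Plaur differed by more than 0.5.

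**Figure D2:**
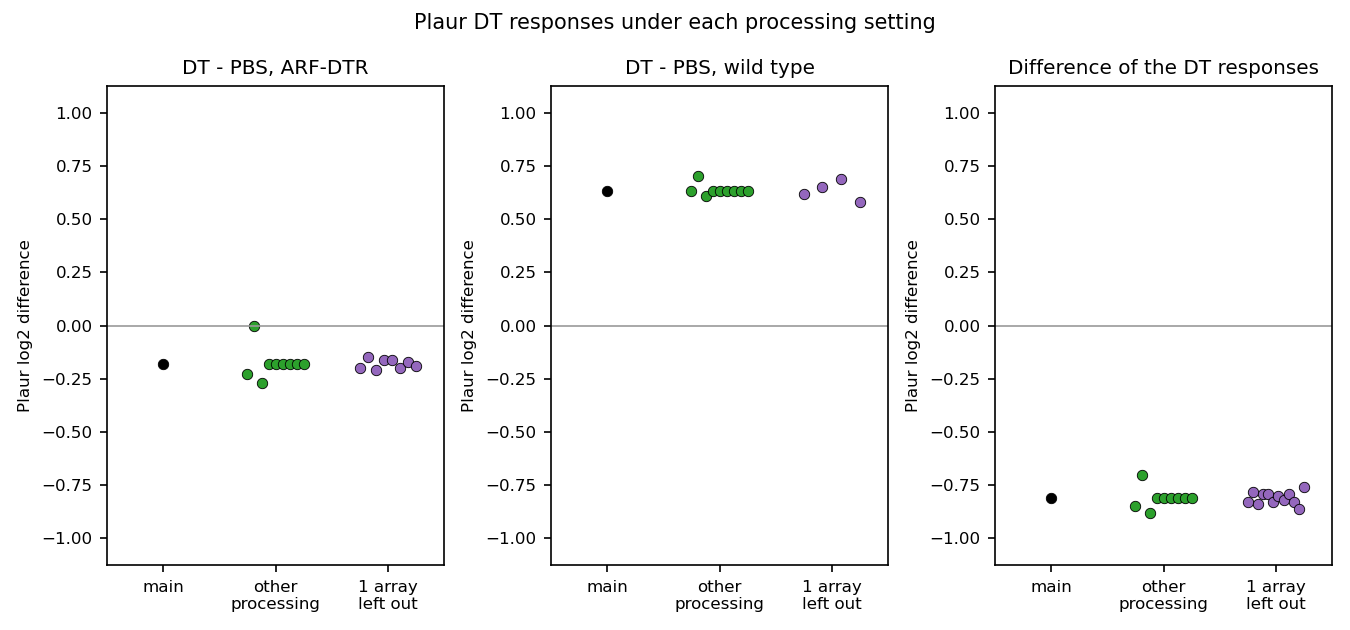
Log2 difference of Plaur between DT and PBS in ARF-DTR lungs (left) and wild type lungs (middle), and the difference of these responses (right), under the main setting, under other processing and without single arrays; each point is 1 setting. The ARF-DTR value was 0.00 when arrays were scaled to their medians and between -0.27 and -0.15 otherwise, and the wild type value was between 0.58 and 0.70.

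Markers of other cell types also moved between these arrays. Neutrophils carry uPAR, and all 12 neutrophil markers listed were measured. The mean level of these markers was 2.71 and 2.90 on the wild type PBS arrays, and between 1.33 and 2.50 on the arrays of the other groups. The markers were thus highest where Plaur was lowest. In limma's fit 2 of the 12 were lower (Retnlg and Mmp8) and 1 higher (Elane) in ARF-DTR than in wild type with PBS, with a median of -1.11. These 3 are 25% of the list, beside 23.6% of all genes. Of the 12, 0 were called with DT in wild type, and 4 were at an unadjusted p under 0.05, as were 3267 of all 25675 genes. The mean of 7 platelet markers was 2.19 to 2.38 on the wild type PBS arrays and 0.02 to 2.55 elsewhere. Alveolar macrophage markers, all 9 of them measured, ran the same way as Plaur in wild type, with a mean of 3.09 to 3.25 with PBS and 3.60 to 4.21 with DT. Their median difference with DT in wild type was 0.60. Limma called 0 of the 9, with 7 at an unadjusted p under 0.05, beside the same 3267 of all 25675 genes. In ARF-DTR lungs, where Plaur was lower with DT, they were at 2.82 to 3.47 with PBS and 3.51 to 3.98 with DT. The part of these cells in the Plaur values was not tested, and in whole lung fewer cells of a type and less RNA per cell cannot be told apart.

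Plau encodes urokinase, the ligand of the receptor. With PBS, ARF-DTR lungs were at -2.70, -3.21, -3.01 and -2.85, and with DT at -3.73, -3.53, -3.36 and -3.48, so that every DT array was below every PBS array. Plau was lower with DT by 0.58 on the log2 scale (SE 0.12, 1.5-fold, limma adjusted p = 0.00409), across slides. It was the only member of the 5 tested that was called in this comparison, in which 29.2% of all genes passed. The probe was dim, at 46.2 to 62.6 intensity units with DT and 112 to 154 with PBS, before scaling. The DT arrays were dimmer as a whole, with 75th percentiles of 613 to 725 units beside 900 to 1070 with PBS. With normexp background correction the difference was -0.15 (adjusted p = 0.21).

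The 2-month lungs were at -3.22, -3.04, -2.89 and -3.21 for Plau, overlapping the PBS-treated lungs. DT-treated lungs were lower than these by 0.44 ± 0.12 (adjusted p = 0.0159), but by 0.04 with normexp correction (adjusted p = 0.74). Wild type lungs were at -2.98 and -3.25 with PBS and at -3.32 and -3.50 with DT. That difference, -0.30 ± 0.17, did not pass (adjusted p = 0.511), and 0 of the 5 members tested were called by limma with DT in wild type, where 0.179% of all genes were. At an unadjusted p under 0.05 there were 2, Plat and Serpinf2, beside 3267 of all 25675 genes. On slide 2, Plau was at -0.41 ± 0.15 in DT-treated ARF-DTR against wild type PBS lungs (adjusted p = 0.123) and at -0.11 ± 0.15 against wild type DT lungs (adjusted p = 0.779).

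Plat encodes tissue-type plasminogen activator, which binds fibrin and in the lung is made largely by vessel endothelium. DT-treated ARF-DTR lungs were at 1.61, 1.67, 1.64 and 1.48. DT-treated wild type lungs were at 1.17 and 0.80, below all other arrays of the series. Plat was higher in the former by 0.62 ± 0.10 (1.53-fold, adjusted p = 0.0147), within slide 2 but across its rows. It was the only 1 of the 5 members called between the DT-treated groups, where 0.923% of all genes were. Without wild type DT replicate 2 the difference was 0.43 and did not pass (adjusted p = 0.0783), nor did it in a fit of these 6 arrays alone (adjusted p = 0.173).

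Wild type PBS arrays were at 1.34 and 1.25 for Plat. DT-treated ARF-DTR lungs lay 0.31 ± 0.10 above them without overlap, which missed the threshold (adjusted p = 0.0818). DT in wild type gave -0.31 ± 0.11 (adjusted p = 0.267) and DT in ARF-DTR 0.17 ± 0.08 (adjusted p = 0.135), against PBS arrays at 1.37, 1.32, 1.54 and 1.51. With arrays scaled to their medians the ARF-DTR value was 0.35 and passed (adjusted p = 0.0107). The 2-month arrays were close together, at 1.32, 1.34, 1.38 and 1.37. DT-treated ARF-DTR lungs were above them by 0.25 ± 0.08 (adjusted p = 0.0309), a call that was lost without any 1 of 7 of the 8 arrays, with adjusted p of 0.0506 to 0.0747. Together with Plau, 2 of the 5 members were called against the 2-month lungs, where 30.7% of all genes were.

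**Figure D3:**
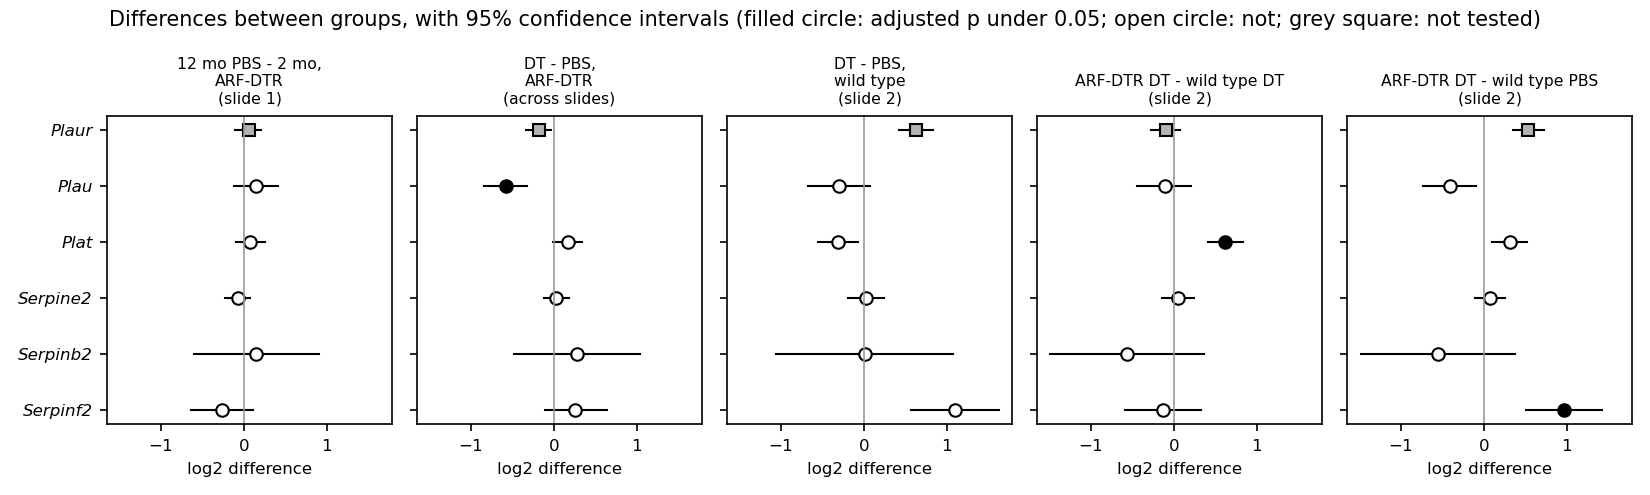
Log2 difference of each gene in 5 comparisons, with 95% confidence intervals from limma's fit over 16 arrays. Filled circles had an adjusted p under 0.05 and open circles did not. Grey squares mark Plaur, which was not tested, and its intervals are no test, since the genes were chosen on it. Each of the comparisons with a filled circle has 1, Plau with DT in ARF-DTR (-0.58), Plat against wild type DT (0.62) and Serpinf2 against wild type PBS (0.97).

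Serpinf2 encodes alpha-2-antiplasmin, the main fast inhibitor of plasmin, which is made chiefly in liver. Like Plaur, it had both wild type PBS arrays below every other array. These were at -4.66 and -5.01, and with DT the wild type arrays were at -3.82 and -3.64. The probe was among the dimmest used, at 24.3 and 21.1 intensity units with PBS, and only 1 of the 2 PBS arrays was well above background. DT in wild type gave a level 2.15-fold higher (log2 interval 0.57 to 1.63), which missed the threshold (adjusted p = 0.097).

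DT-treated ARF-DTR lungs, at -3.71, -3.67, -3.88 and -4.19, were above the wild type PBS pair, in the other row of the same slide, by 0.97 ± 0.21 (1.96-fold, adjusted p = 0.0229). Serpinf2 was the 1 member of 5 called there, where 5.55% of all genes passed. The difference was 0.25 with normexp correction (adjusted p = 0.128), and without either wild type PBS array it no longer passed (1.14 and 0.80, adjusted p = 0.0802 and 0.164), nor did it in a fit of these 6 arrays alone (adjusted p = 0.0609). PBS-treated ARF-DTR lungs, at -3.96, -4.16, -4.06 and -4.32, were above the same pair by 0.71 ± 0.21 (adjusted p = 0.0302), across slides. It was again the 1 member called, beside 23.6% of all genes. With normexp correction the sign turned (-0.11, adjusted p = 0.373), and without wild type PBS replicate 2 the difference was 0.54 (adjusted p = 0.229). The call was also lost with median scaling, with quantile normalization, and without ARF-DTR PBS replicate 1 or 3 or wild type PBS replicate 1 (adjusted p = 0.0557 to 0.0789). The 2-month arrays, at -3.82, -3.61, -4.41 and -3.60, spanned the range of the other ARF-DTR arrays. The difference of the DT responses was -0.84 ± 0.30, and 0.11 with normexp correction.

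Serpinb2 encodes plasminogen activator inhibitor 2, an intracellular and secreted inhibitor of urokinase that macrophages make. In each of the 3 ARF-DTR groups it had the largest SD of the 6 genes (0.30 to 0.86), but not in the wild type pairs (0.12 and 0.17). PBS-treated ARF-DTR lungs were at -4.10, -4.59, -2.71 and -4.43, so that replicate 3 lay above all other arrays of the series. DT-treated ARF-DTR lungs were at -3.90, -3.34, -3.51 and -3.97, and the 2-month lungs at -4.23, -3.86, -4.70 and -3.66. Wild type lungs were at -3.21 and -3.04 with PBS and at -3.00 and -3.23 with DT, above every ARF-DTR array but that replicate. No comparison passed. The difference with DT was 0.28 ± 0.35 in ARF-DTR (adjusted p = 0.576) and 0.01 ± 0.49 in wild type (adjusted p = 0.997), and between ARF-DTR and wild type with PBS it was -0.83 ± 0.43 (adjusted p = 0.178). Without PBS replicate 3 the ARF-DTR response was 0.70 (adjusted p = 0.0485) and the difference between the genotypes with PBS was -1.25 (adjusted p = 0.0107), both across slides.

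Serpine2 encodes protease nexin 1, an inhibitor of thrombin, urokinase and tissue-type activator. It was the steadiest member, between 1.19 and 1.56 on all 16 arrays. Its group means were 1.38 at 2 months, 1.30 and 1.33 in ARF-DTR with PBS and DT, and 1.25 and 1.28 in wild type with PBS and DT. DT gave 0.03 ± 0.07 in ARF-DTR (-0.12 to 0.18) and 0.03 ± 0.10 in wild type (-0.19 to 0.24). Between 2 and 12 months limma called 0 of the 5 members, where 6.15% of all genes were called. At an unadjusted p under 0.05 there were 0 members, beside 5140 of all 25675 genes. The differences ran from -0.26 ± 0.17 for Serpinf2 to 0.15 ± 0.12 for Plau and 0.15 ± 0.35 for Serpinb2.

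Of 40 other genes of the plasminogen system, 34 were measured. Plg itself, which encodes plasminogen and is expressed chiefly in liver, was well above background on 0 of the 16 arrays, as were F12 and Fgb.

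With DT in ARF-DTR lungs 10 of the 34 rose and 2 fell, 35.3% against 29.2% of all genes. This comparison crossed slides, so DT and slide cannot be told apart in the values below. The median was 0.07, beside 0.00 over all genes. S100a10 and Anxa2, whose products form a complex that binds plasminogen and tissue-type activator, rose by 0.59 ± 0.10 and 0.54 ± 0.09 (adjusted p = 0.00111 and 0.00143). Plgrkt, a plasminogen receptor, rose by 0.34 ± 0.07 (adjusted p = 0.00263). Its mean was 1.93 with PBS and 2.27 with DT in ARF-DTR, and 2.16 in wild type PBS lungs on the slide of the DT arrays. Also higher were the endocytic receptor Lrp2 (0.57 ± 0.20), the integrin subunits Itgb2 (0.42 ± 0.10) and Itgav (0.37 ± 0.10), and Serping1, the C1 inhibitor (0.37 ± 0.08). The Lrp2 call was lost under 10 of 17 alternatives (adjusted p = 0.0554 to 0.172), among them quantile normalization and leaving out any 1 of 7 of the 8 arrays, and with the mean of its probes Lrp2 was at 0.30. The Itgav call was lost under 4 (adjusted p = 0.05 to 0.056), among them leaving out PBS replicate 3 or DT replicate 3 or 4, and with quantile normalization Serping1 was at 0.17 (adjusted p = 0.0886). Vtn, which encodes vitronectin, a matrix ligand of uPAR, fell by 0.23 ± 0.07 (adjusted p = 0.0325), as did the integrin subunit Itgam (-0.22). The split was 14 higher and 0 lower with arrays scaled to their medians, where neither Vtn nor Itgam passed, and 7 and 5 with quantile normalization. Without PBS replicate 3, 7 of the 34 were called.

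**Figure D4:**
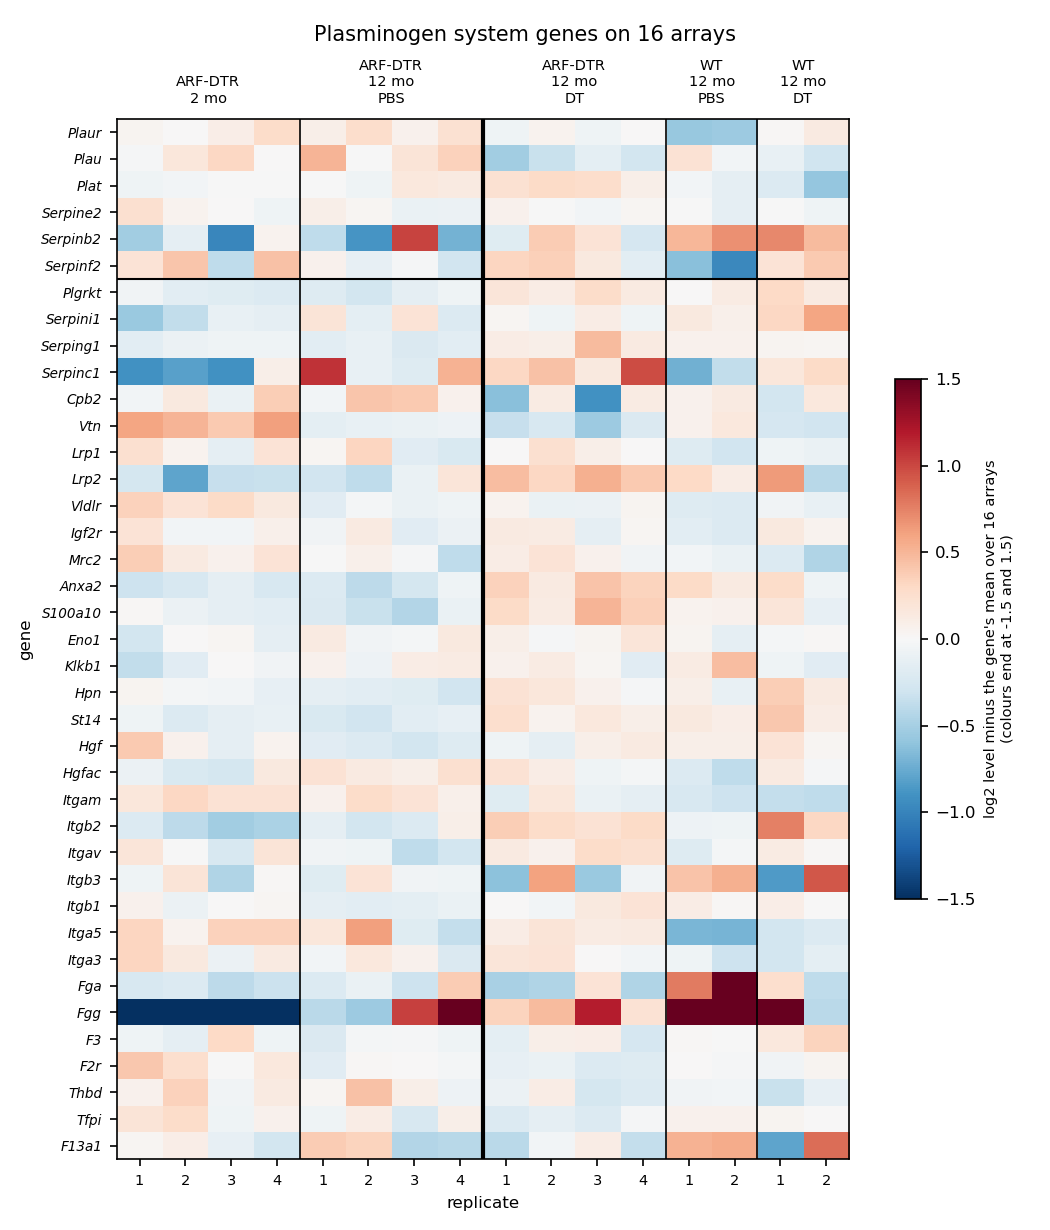
Levels of the 6 genes (above the horizontal line) and of other measured plasminogen system genes on each of the 16 arrays, as log2 level minus the mean of the gene, with colours ending at -1.5 and 1.5; the thick vertical line separates slide 1 from slide 2. Vtn was high at 2 months, Fgg was low there, and Plaur, Serpinf2 and Itga5 were lowest in wild type with PBS.

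The within-slide comparisons called fewer. Between 2 and 12 months Fgg, the fibrinogen gamma chain, rose by 2.79 ± 0.60 (adjusted p = 0.0162), and Vtn (-0.63 ± 0.07, adjusted p = 0.000393) and the lipoprotein receptor Vldlr (-0.34 ± 0.06) fell. That is 3 of 34, beside 6.15% of all genes. There were 5 without 2-month replicate 3 or 4, and 2 without 2-month replicate 1 or 2, where the Fgg call was lost (adjusted p = 0.0534 and 0.051). In DT-treated ARF-DTR against wild type PBS lungs, Itga5, the fibronectin receptor subunit, was higher (0.82 ± 0.19, adjusted p = 0.03). Fga, the fibrinogen alpha chain (-1.64 ± 0.29, adjusted p = 0.0104), and Vtn (-0.45 ± 0.09, adjusted p = 0.017) were lower. These are 8.82% of the list, beside 5.55% of all genes. The Itga5 call was lost with normexp correction (0.57, adjusted p = 0.0533) and without any 1 of DT replicates 2, 3 and 4 (adjusted p = 0.0518 to 0.0659). The Vtn call was lost with median scaling (-0.36, adjusted p = 0.0731). In a fit of these arrays alone neither Vtn (adjusted p = 0.0974) nor Fga (adjusted p = 0.0712) passed. Without wild type PBS replicate 1 and replicate 2, 1 and 0 of the 34 passed, and with the mean of its probes Fga was at -1.14 (adjusted p = 0.2). With DT in wild type and between the DT-treated groups limma called 0 of 34. At an unadjusted p under 0.05 there were 8 and 7, beside 3267 and 4016 of all 25675 genes. Across slides, 4 were higher and 3 lower in ARF-DTR than in wild type with PBS, among them Itga5 (0.75 ± 0.19), Hgfac (0.46 ± 0.12), Itgam (0.43 ± 0.09), Fga (-1.40 ± 0.29) and Anxa2 (-0.44 ± 0.11). That is 20.6%, beside 23.6% of all genes. With quantile normalization Anxa2 was at -0.06 (adjusted p = 0.625), and with the mean of its probes Fga was at -0.83 (adjusted p = 0.256). Without wild type PBS replicate 1 and replicate 2, 3 and 1 were called there. Against 2 months, 9 were higher and 6 lower in DT-treated lungs (44.1% beside 30.7% of all genes), with Fgg at 2.87 ± 0.60, Serpinc1, which encodes antithrombin, at 1.11 ± 0.29, Lrp2 at 0.86 ± 0.20 and Vtn at -0.86 ± 0.07.

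Plaur belongs to the Ly6 and uPAR family, of which 25 of 32 other genes were measured. Cd177, a surface protein of neutrophils that partners with integrins, was the 1 family gene called between the DT-treated groups on slide 2. It was at -1.99 ± 0.25 in ARF-DTR against wild type (adjusted p = 0.00377), and 1 gene is 4% of the family genes, beside 0.923% of all genes. Without DT replicate 1 of ARF-DTR and of wild type, 3 and 2 were called, and 4 without the filter on dim probes. In a fit of these 6 arrays alone 0 were called, and Cd177 did not pass (adjusted p = 0.0878). Cd177 was lower than in wild type PBS lungs too (-1.06 ± 0.25, adjusted p = 0.0297), a call lost without either wild type PBS array (adjusted p = 0.18 and 0.125) or any 1 of DT replicates 2, 3 and 4, and in a fit of these arrays alone (adjusted p = 0.0602). It rose between 2 and 12 months (1.57 ± 0.20, adjusted p = 0.000769) and fell with DT in ARF-DTR lungs (-1.26 ± 0.20, adjusted p = 0.00111). With age Ly6g5b (2-fold), Ly6k (1.55 ± 0.34) and Ly6d (0.72 ± 0.16) also rose, so that 4 rose and 1 fell (20% beside 6.15% of all genes), and 3 passed when any 1 of 2-month replicates 1 and 4 and PBS replicates 1 and 3 was left out. With DT in ARF-DTR 5 rose, among them Slurp1 (1.34 ± 0.30) and the complement regulator Cd59a (0.60 ± 0.16), and 2 fell, Cd177 and Ly6f (-1.23 ± 0.18). These are 28% of the family genes, beside 29.2% of all genes. Limma called 0 of 25 with DT in wild type, with 4 at an unadjusted p under 0.05, beside 3267 of all 25675 genes. It called 3 of 25 against wild type PBS (12% beside 5.55% of all genes), with Lypd6 at -0.68 and Psca at 1.34. The Lypd6 call was lost under 11 of 15 alternatives (adjusted p = 0.0574 to 0.238), and Psca was at 0.17 with normexp correction and 0.68 without wild type PBS replicate 1, passing in neither. The count against wild type PBS was 0 without wild type PBS replicate 1 and in a fit of these arrays alone, and 1 with normexp correction, without wild type PBS replicate 2 or without any 1 of DT replicates 2, 3 and 4. With DT in wild type it was 1 without wild type PBS replicate 2. With PBS 3 were higher and 5 lower in ARF-DTR than in wild type, 1 and 4 in all without wild type PBS replicate 1 and replicate 2, with Psca at 1.47, Ly6f at 1.28, Ly6d at -0.78 and Lypd5 at 0.66. The 8 are 32% of the family genes, beside 23.6% of all genes, and the Lypd5 call was lost under 5 of 15 alternatives (adjusted p = 0.0521 to 0.178), among them leaving out ARF-DTR PBS replicate 1 or 2. Psca had no wild type array well above background, and with normexp correction its sign turned (-0.10). Against 2 months 7 were higher and 2 lower (36% beside 30.7% of all genes), among them Ly6k (1.79) and Slurp1 (1.39).

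Serpinb2 is a clade B serpin, and 13 of the 26 others were measured. With DT in ARF-DTR 5 rose and 4 fell (69.2% beside 29.2% of all genes), the largest falls being Serpinb6d (-0.99 ± 0.06, adjusted p = 9.26e-07) and Serpinb6e (-1.10 ± 0.11, adjusted p = 4.95e-05), while Serpinb6b and the granzyme B inhibitor Serpinb9 rose (0.71 ± 0.12 and 0.64 ± 0.14). Serpinb6d was at 1.12 ± 0.08 and Serpinb6e at 1.20 ± 0.14 between ARF-DTR and wild type with PBS, across slides, and at 0.13 and 0.11 on slide 2 between DT-treated ARF-DTR and wild type PBS lungs, where they did not pass (adjusted p = 0.355 and 0.699). With age, on slide 1, they were at 0.05 and 0.01. The comparisons in which these 2 genes passed are those that cross slides, where slide and group cannot be told apart, and members of this cluster are close copies whose probes may read one another. Of the 13, limma called 0 with DT in wild type (0 at an unadjusted p under 0.05), 0 between the DT-treated groups (1) and 0 against wild type PBS (3). At that unadjusted threshold were 3267, 4016 and 5718 of all 25675 genes. Without the filter on dim probes 4 were called between the DT-treated groups. Against wild type PBS 1 was called without DT replicate 2, without the filter, with normexp correction, with median scaling and with quantile normalization. With age 1 fell, Serpinb1b (-0.75), 7.69% beside 6.15% of all genes. With PBS 3 were higher and 2 lower in ARF-DTR (38.5% beside 23.6% of all genes), 3 in all without wild type PBS replicate 1, among them Serpinb1c (0.91) and Serpinb6a (-0.38). Serpinb6a did not pass with quantile normalization (-0.16, adjusted p = 0.079) or without wild type PBS replicate 1 (adjusted p = 0.0639). Against 2 months 5 were higher and 3 lower (61.5% beside 30.7% of all genes), among them Serpinb6b (0.81) and Serpinb1a (0.77).

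Markers of lung cells were measured alongside. All 12 epithelial markers that stand for the labelled tissue were measured, at a mean level of 6.12 to 6.68. With DT in ARF-DTR, where Plau was lower, 29.2% of all genes passed in either direction. This comparison crossed slides, and slide and DT cannot be told apart in it. There 10 of these 12 epithelial markers were higher (83.3%, Sftpd by 0.87, Sftpa1 by 0.65). On slide 2, limma called 0 of the 12 between DT-treated ARF-DTR and wild type PBS lungs, where 5.55% of all genes passed. At an unadjusted p under 0.05 there were 5, beside 5718 of all 25675 genes. With PBS, across slides, 5 of the 12 were lower in ARF-DTR than in wild type (41.7% beside 23.6% of all genes). With DT in ARF-DTR 8 of 9 alveolar macrophage markers were higher (88.9%, Atp6v0d2 by 0.95, Chil3 by 0.88). Against wild type PBS lungs on slide 2 limma called 0 of these 9, with 6 at an unadjusted p under 0.05. With DT in ARF-DTR the Atp6v0d2 call was lost under 6 of 17 alternatives (adjusted p = 0.0543 to 0.0643). The Chil3 call there was lost with quantile normalization (0.53, adjusted p = 0.058). Of 9 monocyte and macrophage markers 3 rose (Lyz2 by 0.86, Adgre1 by 0.50), which at 33.3% is near the share of all genes. In the same comparison 2 of 7 mesothelial markers rose (28.6%, also near that share). Below it, 1 each of 8 endothelial, 8 fibroblast, 6 hepatocyte and 12 neutrophil markers fell. With age, where Vtn fell, 6.15% of all genes passed. There 5 of 8 fibroblast markers fell (Col3a1 by 1.13, Col1a1 by 1.09) and 3 of 8 endothelial markers fell (Kdr by 0.43, Pecam1 by 0.27). In the same comparison 4 of 7 mesothelial markers rose (Wt1 by 1.81, Bnc1 by 1.50). The Col3a1 and Kdr calls were each lost under 3 of 17 alternatives and the Pecam1 call under 4 (adjusted p = 0.0511 to 0.0626). Of 7 mast cell and basophil and 7 platelet markers limma called 0 with DT in ARF-DTR and 0 with age. At an unadjusted p under 0.05 there were 3 mast cell and basophil markers with age, beside 5140 of all 25675 genes, and 0 otherwise. Endothelial markers, the cell type best known for Plat, were at a mean of 3.74 to 3.87 on the wild type DT arrays, where Plat was lowest, and at 3.83 to 4.25 elsewhere. The part of these cells in the values of the members was not tested.

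Among the genes whose levels were most like those of Plaur over the 16 arrays were Edrf1 (Pearson's r = 0.92, Spearman's rho = 0.77), Dhx33 (0.89, 0.68), Tra2b (0.87, 0.70), Adamts1 (0.86, 0.70) and Tra2a (0.86, 0.52). Dhx33 encodes an RNA helicase, Tra2a and Tra2b splicing regulators and Adamts1 a matrix metalloprotease. All 5 had their lowest group mean in wild type with PBS, Adamts1 at 2.46 there and 2.86 to 3.23 in the other groups. Plaur was lowest there too, so this follows largely from how the genes were picked. These arrays share groups and slides, and the values are a description with no test. Among the members, r with Plaur was 0.63 for Serpinf2 (rho 0.23), 0.13 for Serpine2 (-0.11), 0.05 for Plau (0.31), 0.02 for Plat (-0.04) and -0.47 for Serpinb2 (-0.42). By deviations from the group means, which leave the group differences out, the most similar were Ssu2 (r = 0.89), Pou5f2 (0.87), Mau2, Fam222b and Slc22a14 (each 0.86) and Olfr1349 (0.85). Serpinf2 was at -0.06. Slc22a14 and Olfr1349 were dim, with group means of -3.78 to -4.86 and of -4.19 to -4.42. The similar genes were picked as the highest among all genes with a symbol, so their high r is no evidence of a link with Plaur.

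**Figure D5:**
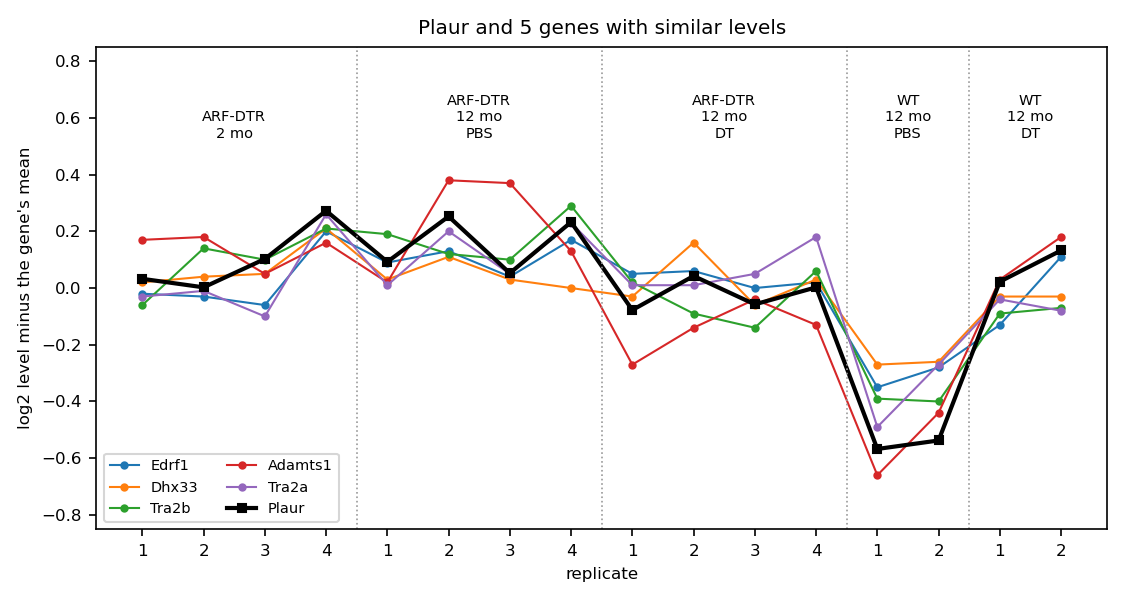
Level minus the mean of the gene on each of the 16 arrays for Plaur (black squares) and 5 genes with a high correlation to it; vertical dotted lines separate the groups. All 6 lines dip on the 2 wild type PBS arrays, which follows largely from the choice by correlation with Plaur.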

How the data were processed

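Images were quantified with Agilent Feature Extraction, per the file headers, and the submitters' processing notes give its version as 10.10.1.1. The probe design was on mm9. The deposited scanner files hold background-subtracted, detrended intensity values, not scaled between arrays. The authors' processed values are on the log2 scale, which matched log2 intensity minus the 75th percentile of each array to within 0.011, the scale used here. Control spots and outlier spots were left out, and 0 spots were saturated. A probe was kept when it rose well above background on 4 arrays or more, and the brightest stood for a gene. Groups came from the sample titles. limma 3.58.1 in R 4.3.3 (with data.table at version 1.17.8) fitted 1 mean per group over all arrays, with two-sided tests, Benjamini-Hochberg adjustment over 25675 genes and a threshold of 0.05. Values after ± beside a difference are standard errors of that fit. The fit was tested on simulated data with independent noise and no slide or row effect, so that test cannot show how these act on the calls. The members, the gene and marker lists (187 entries, 157 measured) and the contrasts were chosen with earlier results of these data known. Named besides the members were Plg, Plgrkt and Vtn, per comparison up to 6 called plasminogen system genes, up to 4 called genes of each related family, up to 2 of a marker list with many genes called, and the 6 genes most like Plaur by each measure. Retnlg, Mmp8 and Elane, and F12 and Fgb, were named after their values were seen. Some genes that this rule takes in are not reported here. The number of arrays limits the precision. Alternatives were normexp background correction with an offset of 50, other scalings, filters and probe summaries, the authors' table, a replicate block, fits on the compared groups alone, and leaving out each array.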

Additional observations from a re-analysis of the deposited data

Results flagged for a closer look

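Plaur is listed here because its response to DT ran in opposite directions in the genotypes. Every DT-treated wild type array was above every PBS-treated wild type array, and every DT-treated ARF-DTR array was below every PBS-treated ARF-DTR array. The difference of the responses was -0.81 on the log2 scale. That difference was not tested, since the genes were chosen on it. The ARF-DTR side crossed slides and was 0.00 when arrays were scaled to their medians, so that no direction holds there under that scaling. No group of 4 arrays had a member with a single array far from the rest by Dixon's criterion.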

How the results depend on the processing

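Over the members, 710 of the values recomputed under an alternative kept their direction and their side of the threshold or moved by less than the replicate spread, 28 changed sign, 22 lost a call, 4 gained one and 8 untested values moved further. Of the other named genes 1266 values stayed, 126 lost a call and 1 changed sign. The difference of the Plaur responses, on which the genes were chosen, ran from -0.88 to -0.70, which is no test of it. Scaling to array medians moved the median of all genes from -0.03 to -0.12 (age), 0.00 to 0.18 (DT in ARF-DTR), -0.02 to -0.12 (genotypes with PBS) and 0.04 to 0.14 (difference of the responses); Plaur was then at -0.04 and Plat at -0.01 with age, Plaur at 0.00 with DT in ARF-DTR, Serpine2 at -0.04 between the genotypes with PBS, at 0.04 against 2 months and at 0.11 for the difference of the responses, and Serpinf2 at 0.09 against 2 months. With normexp correction Serpinb2 was at -0.01 with DT in wild type, Plau at -0.06, Serpinf2 at -0.11 and Psca at -0.10 between the genotypes with PBS, Serpinf2 at 0.21 against 2 months, and Plau at 0.03 and Serpinf2 at 0.11 for the difference of the responses. Quantile normalization gave Serpine2 -0.02 with DT in ARF-DTR and Serpinf2 0.09 against 2 months. The cause of these sign changes was not tested. Signs also turned when single arrays were left out, for Serpinb2 with age (-0.26 to 0.37) and with DT in wild type (-0.11 to 0.13), for Serpine2 with DT in wild type (-0.03 to 0.09), between the genotypes with PBS (-0.01 to 0.11) and against 2 months (-0.09 to 0.02), and for Serpinf2 against 2 months (-0.19 to 0.11).

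Counts of genes called depended on the fit. Age gave 1578 genes, 965 on its own arrays and 927 to 1786 without single arrays. DT in wild type gave 46, with 20 (normexp), 28 (medians) and 26 (probes well above background on every array), 78 to 233 without single arrays, and 0 by limma on its own 4 arrays, where 2543 were at an unadjusted p under 0.05. The DT-treated groups differed in 237, with 126 (normexp), 3578 (no filter), 96 (replicate block), 6 (own arrays) and 85 to 300 without single arrays. Against wild type PBS 1426 passed, 376 on the own arrays and 205 to 1262 without single arrays, with 205 and 358 without wild type PBS replicate 1 and replicate 2. The genotypes with PBS gave 6059 (2324 to 5781, with 2324 and 2552 without the same arrays), DT in ARF-DTR 7508 (5386 to 7770) and the comparison with 2 months 7879 (6045 to 8366). The difference of the responses gave 541, 2024 with normexp, 289 without the filter and 227 to 1110 without single arrays. Of genes called with DT in ARF-DTR 54% were higher, 83.2% with median scaling and 74% with normexp. That share also moved by over 10 percentage points for age (44.4% to 26.6% with medians), for DT in wild type (32.6% to 42.9%), against wild type PBS (38.5% to 64%), against wild type DT (65.8% to 55.6% with normexp), between the genotypes with PBS (46.2% to 30.8% with medians and 23.3% with normexp), against 2 months (48.1% to 65.6% and 67.1%) and for the difference of the responses (40.5% to 60.8% and 80.9%).

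The counts of list genes under these settings were added after seeing the data. The main fit did not treat samples of the same replicate number as paired. The correlation of deviations was -0.20 to 0.33 for 26 pairs of the same number (median 0.06, 7 over 0.1). For 74 others it was -0.24 to 0.28 (median -0.01, 8 over 0.1), and whether the numbers pair the samples was not tested. Besides the counts given, the replicate block took the call from Plat between the DT-treated groups (0.59, adjusted p = 0.05). It also took the calls from Cd177 (-1.01, adjusted p = 0.0605) and Lypd6 (-0.63, adjusted p = 0.0795) against wild type PBS, and from Lypd5 between the genotypes with PBS (0.57, adjusted p = 0.0612). Slide as a random block could not be fitted because the group means already encode the slide. A fit that left 1 wild type array in a group assumed that it varied like the other groups. Plau, Serpinb2 and Serpinf2 were dim, at 21.1 to 154 intensity units, which limits their values.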
